A study of Mus musculus with 12 samples.

Results

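Mouse nomenclature adds "os" to a gene symbol to name a transcript made from the DNA strand opposite that gene. Such transcripts were taken here as the rows of the count tables whose symbol ended in os, or in os and 1 digit, and whose symbol without that ending, the stem gene, was itself a row. The rule gave 137 members of 32531 gene rows, and these faced 131 stem genes, because Bcas3, Kcnmb4, Pcsk2, Ptgs2, Rab11fip4 and Rsf1 each had a pair of members. Lhx1os and Dlx6os1 were left out. The label "noncoding" held for most members and not for all. RefSeq or GENCODE listed 9 as protein-coding (among them Ccpg1os, Cebpzos, Slc7a6os, Wdr83os and Toporsos, which RefSeq names Smim27), and the other 128 were listed as noncoding. The longest reading frame from a start to a stop codon was 29 to 294 codons, with a median of 90, in the 121 noncoding members with a GENCODE transcript.

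The libraries came from adult JX883 mice, which carry the ribosomal protein Rpl10a fused to EGFP in cells that express Slc17a6, the gene of the vesicular glutamate transporter VGLUT2 of subcortical excitatory neurons. Tagged polysomes were pulled down with antibodies to EGFP, which gave the immunopurified RNA (IP), and total RNA of the tissue gave the input. There were 4 groups of 3 libraries (hypothalamus IP, hypothalamus input, midbrain IP and midbrain input), all from this transgenic line, and no IP from mice without the tag was analysed here. Every IP bore one sequencing index and every input another, so index and fraction cannot be told apart. The labels do not say if a library came from 1 animal or several, so p-values measure the spread between these libraries, which may be technical.

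Opposite-strand RNAs arise in several ways. Many mammalian promoters fire in both directions, and the RNA that runs away from the gene is often short-lived and kept in the nucleus, while other opposite-strand RNAs start inside a gene or beyond its end and cross its introns or exons on the other strand. Some act on their neighbour or its targets, as Six3os1 does with the forebrain and eye factor Six3 in the mouse retina, and some encode small proteins of their own.

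By their place relative to the stem gene in GENCODE mouse release 21, on the mm10 build, 44 members lay inside the body of the stem gene. Another 41 had their start within 2 kb of the stem's start and ran the other way (head to head), 16 ran into the stem's end (tail overlap), 18 overlapped it in another way and 10 lay apart from it. The 8 others had no such symbol there and were not placed. The sequences that follow are the promoter windows of the 4 head-to-head members with the highest level among those in RefSeq's promoter table, and they are shown because member and stem start within them. Each is 300 bases of the GRCm38.p6 build, read 5′ to 3′ on the member's strand, and capitals mark the bases that also lie in the stem gene's own window. The Wdr83os window is chr8:85080713-85081012 on the plus strand, and the Cep83os window is chr10:94688564-94688863 on the minus strand. The Fam120aos window is chr13:48967862-48968161 on the plus strand, and the Ccpg1os window is chr9:72985327-72985626 on the minus strand.
Wdr83os: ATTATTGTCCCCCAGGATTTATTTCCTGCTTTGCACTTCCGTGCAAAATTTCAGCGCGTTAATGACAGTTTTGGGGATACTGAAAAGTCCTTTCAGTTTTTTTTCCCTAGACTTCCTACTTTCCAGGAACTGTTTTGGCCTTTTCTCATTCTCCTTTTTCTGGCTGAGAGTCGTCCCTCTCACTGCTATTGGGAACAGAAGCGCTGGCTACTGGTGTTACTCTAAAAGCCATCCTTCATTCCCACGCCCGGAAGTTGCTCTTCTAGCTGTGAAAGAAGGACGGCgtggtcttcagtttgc
Cep83os: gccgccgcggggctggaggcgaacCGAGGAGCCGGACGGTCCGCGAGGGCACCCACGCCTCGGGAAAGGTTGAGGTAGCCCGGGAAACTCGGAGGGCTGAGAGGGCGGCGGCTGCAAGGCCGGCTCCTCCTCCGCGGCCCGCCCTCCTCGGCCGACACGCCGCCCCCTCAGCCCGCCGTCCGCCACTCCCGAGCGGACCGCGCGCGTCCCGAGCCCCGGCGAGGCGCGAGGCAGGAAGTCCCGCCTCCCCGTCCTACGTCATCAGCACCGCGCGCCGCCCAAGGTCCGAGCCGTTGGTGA
Fam120aos: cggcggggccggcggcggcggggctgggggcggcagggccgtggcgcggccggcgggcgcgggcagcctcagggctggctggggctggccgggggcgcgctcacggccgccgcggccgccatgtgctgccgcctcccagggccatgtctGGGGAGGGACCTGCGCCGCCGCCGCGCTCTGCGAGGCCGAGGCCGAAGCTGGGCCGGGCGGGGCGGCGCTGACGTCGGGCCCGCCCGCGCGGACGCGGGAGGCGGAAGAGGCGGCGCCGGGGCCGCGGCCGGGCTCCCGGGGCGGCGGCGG
Ccpg1os: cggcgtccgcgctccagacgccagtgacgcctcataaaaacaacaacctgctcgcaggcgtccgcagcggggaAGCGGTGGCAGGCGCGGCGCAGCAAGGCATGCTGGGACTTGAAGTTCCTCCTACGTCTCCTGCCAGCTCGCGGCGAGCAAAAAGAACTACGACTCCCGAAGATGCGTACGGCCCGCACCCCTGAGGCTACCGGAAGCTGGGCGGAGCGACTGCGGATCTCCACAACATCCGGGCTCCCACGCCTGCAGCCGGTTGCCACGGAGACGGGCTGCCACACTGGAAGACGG
Member and stem had 284 bases of these windows in common for Wdr83os, 276 for Cep83os, 151 for Fam120aos and 227 for Ccpg1os. Of the 41 head-to-head members 34 had an entry, and 14 of those shared bases with the stem's window. The 34 windows had a median of 19 CG dinucleotides and a median G and C content of 64%, against 7 and 52.7% over 32851 promoters. The letters TATAAA, searched on both strands, were in 3 of the 34 windows and in 13.6% of all promoters, and GGGCGG was in 18 of the 34 and in 35.7% of all. Such a match describes letters and not the binding of a factor.

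Of the 137 members, 79 had enough counts to be tested, by a filter that needed 0.198 CPM (counts scaled to a common library size) in at least 3 libraries. The 58 others totalled 0 to 103 counts over the 12 libraries, and 13 of them had no count. Library totals were 41909019 to 55148109 counts, so that 3 counts, used as the floor per library, came to 0.0537 to 0.071 CPM, which covers counting error only. Members together took 0.0691% to 0.1% of the counts of an IP library and 0.0445% to 0.0588% of those of an input library. Few genes made up much of this. The 8 members not placed, among them Chd3os, had 19157 to 27032 counts in a hypothalamus IP library, where all members had 38982 to 49792. In its input they had 6957 to 8046, where all members had 20436 to 28201. Fewer members were seen in the IPs all the same, as 57 to 76 members were detected in each IP library and 98 to 107 in each input library. Detection over all genes was not counted. Levels are given as TMM-scaled CPM in replicates 1, 2 and 3. Changes are log2 fold changes ± SE from the quasi-likelihood test of edgeR, and p-values were adjusted by the Benjamini-Hochberg method over 18128 genes, with a threshold of 0.05.

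**Figure D1:**
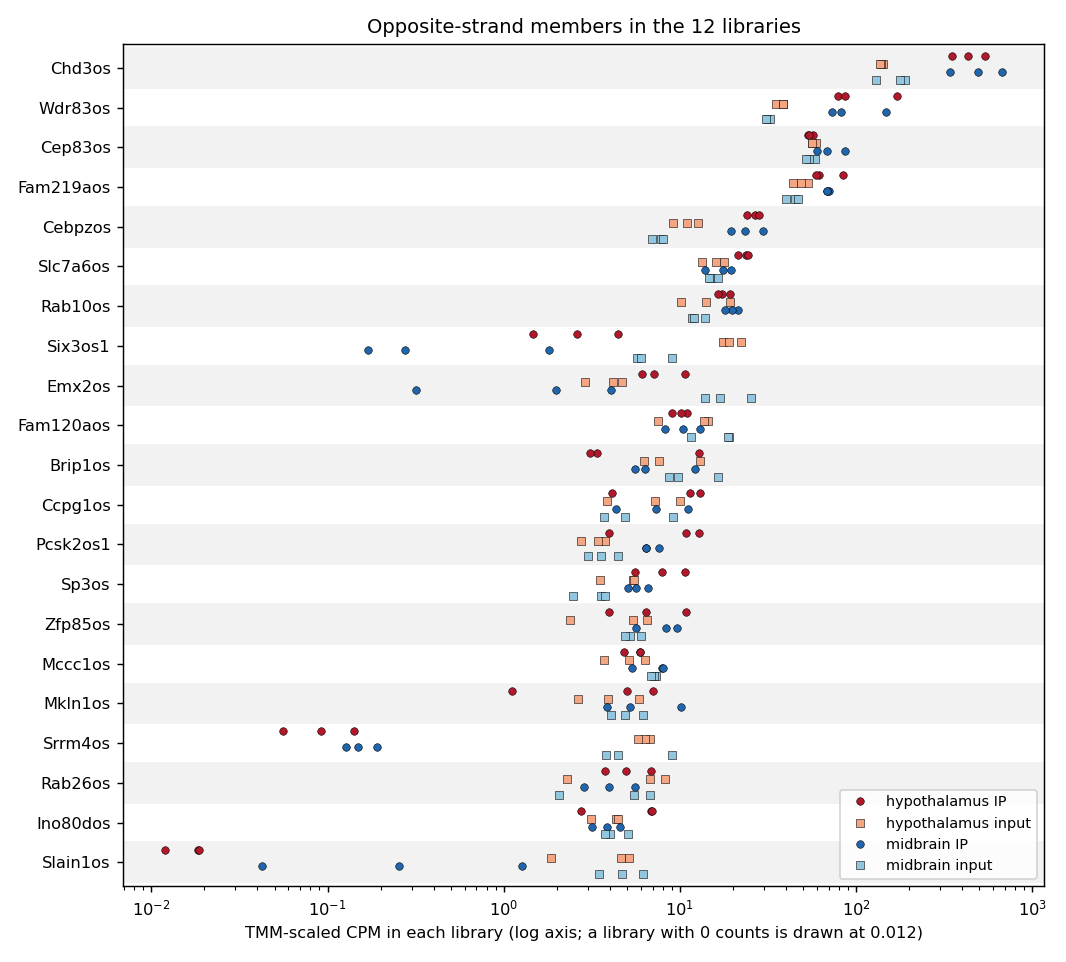
TMM-scaled CPM (log axis) of the 21 members with the highest levels or a regional call in each of the 12 libraries, with circles for IP and squares for input, in red for the hypothalamus and in blue for the midbrain; a library with 0 counts is drawn at the left edge. Chd3os stands highest, with 349 to 540 CPM in the hypothalamus IP, and Srrm4os and Slain1os have IP libraries far to the left of their inputs.

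More opposite-strand RNAs were called lower than higher in the IP. Of the 79 tested, however, 36 reached the minimum through the inputs alone, so their low IP levels are bound up with the filter. When the minimum was asked of the IP libraries, more were higher than lower, but that filter in turn leaves out members that are low in the IP. In the hypothalamus 6 of the 79 members were higher (7.59%, where 14.2% of all genes tested were higher), 20 were lower (25.3%, where 19.6% of all genes were lower) and 53 did not pass. In the midbrain 5 were higher (6.33%, against 14% of all genes), 24 were lower (30.4%, against 19.9% of all genes) and 50 did not pass. The median log2 change of the 79 was -0.29 in the hypothalamus and -0.95 in the midbrain, and over all genes it was -0.08 and -0.05. Chd3os, Wdr83os, Cebpzos and Fam219aos were higher in both regions, and 15 members were lower in both. Of the 7 protein-coding members tested, 3 were higher in the hypothalamus and 2 in the midbrain, and none was lower. Of the 72 noncoding ones, 3 were higher and 20 lower in the hypothalamus, and 3 were higher and 24 lower in the midbrain. Chd3os is among the higher ones in both regions, and it is classed as noncoding by RefSeq alone. Without replicate 2 of the hypothalamus IP, 3 members were higher in the hypothalamus.

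Other noncoding RNAs were counted in the same way, and no test compared the lists. Of 817 GENCODE long noncoding genes tested, members included, 34 rose (4.16%) and 179 fell (21.9%) in the hypothalamus IP, and 31 rose (3.79%) and 175 fell (21.4%) in the midbrain IP, where the shares lower are near those of all genes. Among 14 RNAs known to stay in the nucleus, such as Malat1 and Neat1, 1 was higher and 12 were lower in each region. Of 19 genes with the ending for small RNA hosts, none was higher and 5 were lower in the hypothalamus, and 1 was higher and 6 were lower in the midbrain. Of the 3 genes with an antisense ending, 1 was higher and 1 lower in each region, and of the 3 with an overlapping-transcript ending 2 were lower in each.

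The 36 members that entered through the inputs reached the minimum in at least 3 inputs but in fewer than 3 of the 6 IP libraries. Among members called lower, 11 of 20 in the hypothalamus and 14 of 24 in the midbrain had at most 3 counts over the 3 IP libraries. When a gene was kept only if at least 3 IP libraries reached the minimum, 43 members were tested, with 4 higher and 1 lower in the hypothalamus and 4 higher and 2 lower in the midbrain. The lower ones were Six3os1 in both regions and Emx2os in the midbrain. Every other member called lower without that change had entered through the inputs alone. Asking the minimum of the IP libraries removes genes that are low in the IP, so these counts depend on the filter as well. With it, 15495 genes were tested, of which 2173 were higher and 2343 lower in the hypothalamus. In the midbrain 2127 were higher and 2462 lower. Under library size alone in place of TMM, the median over all genes in the hypothalamus was -0.25 and 28.9% of all calls were higher, against 42.1% with TMM; 4 members were then higher and 20 lower.

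The 2 glutamatergic markers, Slc17a6 and Slc17a7, summed to 1120 to 3490 CPM in the hypothalamus IP and 219 to 519 CPM in its input, and to 1880 to 4040 CPM in the midbrain IP and 517 to 1250 CPM in its input. Markers of other cells were lower in the IPs. The 5 astrocyte markers summed to 7.55 to 11.6 CPM in the hypothalamus IP and 156 to 358 CPM in its input, and to 11.6 to 23.8 CPM in the midbrain IP and 216 to 356 CPM in its input. The 5 oligodendrocyte markers summed to 43.8 to 66.1 CPM in the hypothalamus IP and 696 to 1180 CPM in its input, and to 89.3 to 134 CPM in the midbrain IP and 1280 to 1900 CPM in its input. The 3 GABAergic markers summed to 117 to 308 CPM in the hypothalamus IP and 1510 to 1860 CPM in its input, and to 62.6 to 159 CPM in the midbrain IP and 1060 to 1470 CPM in its input. No gene of these lists was at 0 in any group, whereas 1 of 5 microglial and 2 of 5 endothelial and mural markers were at 0 in the hypothalamus IP. Their part in the members' changes was not tested, and in tissue RNA fewer cells of a type and less RNA per cell cannot be told apart.

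Of the members called lower, 14 of 20 in the hypothalamus and 12 of 24 in the midbrain lay inside the stem gene. Of 21 such members tested, 14 were lower and none was higher in the hypothalamus IP, and 12 were lower and none was higher in the midbrain IP, with 10 lower in both. Their stem genes had a median log2 change of 0.27 in the hypothalamus and 0.43 in the midbrain, and the members had -5.02 and -3.46, or -2.59 and -3.24 with groups at 0 counts set to the floor. Those stems moved both ways, with 5 higher and 6 lower in the hypothalamus (all genes: 14.2% and 19.6%). In the midbrain 6 of them were higher and 5 lower (all genes: 14% and 19.9%). Of the 29 head-to-head members tested, 2 were higher and none was lower in the hypothalamus, and 1 was higher and 4 were lower in the midbrain, with medians of 0.14 and -0.10. Of the 11 with tail overlap, 2 were higher and 3 lower in the hypothalamus, and 3 were higher and 4 lower in the midbrain. The difference between these classes was not tested.

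The filter may have had a larger part in one class than in the other. Of the 21 members inside the stem 17 entered through the inputs alone, and 4 of the 29 head to head did. Without any filter, 43 of the 44 members inside the stem had a count in the hypothalamus, and 40 of these had the lower mean in the IP; in the midbrain 38 of 40 did. For head-to-head members it was 19 of 35 in the hypothalamus and 26 of 38 in the midbrain. The same share over all genes was not counted. Among members inside the stem, 22 in the hypothalamus and 18 in the midbrain had all IP libraries at 0. For some of these the input was below the floor too, as for Nell1os with a mean of 0.0134 CPM in the hypothalamus input. Summed over the 44 members inside the stem, an IP library of the hypothalamus had 366 to 602 counts and an input library 781 to 1491, and in the midbrain an IP library had 301 to 527 and an input library 1114 to 1409. IP and input libraries did not overlap in these sums in either region.

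Long noncoding genes that are not members were counted in the same classes. Of 95 tested that lay inside a protein-coding gene of the other strand, 43 were lower (45.3%) and 1 was higher in the hypothalamus IP, and 38 were lower (40%) and 3 were higher in the midbrain IP. Of 274 tested that lay head to head with such a gene, 32 were lower (11.7%) in each region, and 13 were higher in the hypothalamus and 15 in the midbrain. Over all genes 19.6% were lower in the hypothalamus and 19.9% in the midbrain. These genes passed the same filter as the members. How many of them entered through the inputs alone was not counted, so the part of the filter in these shares is not known. Reads that HTSeq found ambiguous between genes made up 2.67% to 3.19% of the reads assigned to a gene, to none or as ambiguous in the IPs, and 5.77% to 21.8% in the inputs. The labels do not give the strand setting of the counting, and of 70 genes whose exon bases were all exonic on the other strand as well, 57 had no count in any library, against 3675 of 19691 genes with no such base. No member had all of its exon bases shared in that way. If strand was not used, reads from unspliced RNA of the stem and from a member inside it cannot be told apart, and the part of this in the counts was not tested.

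**Figure D2:**
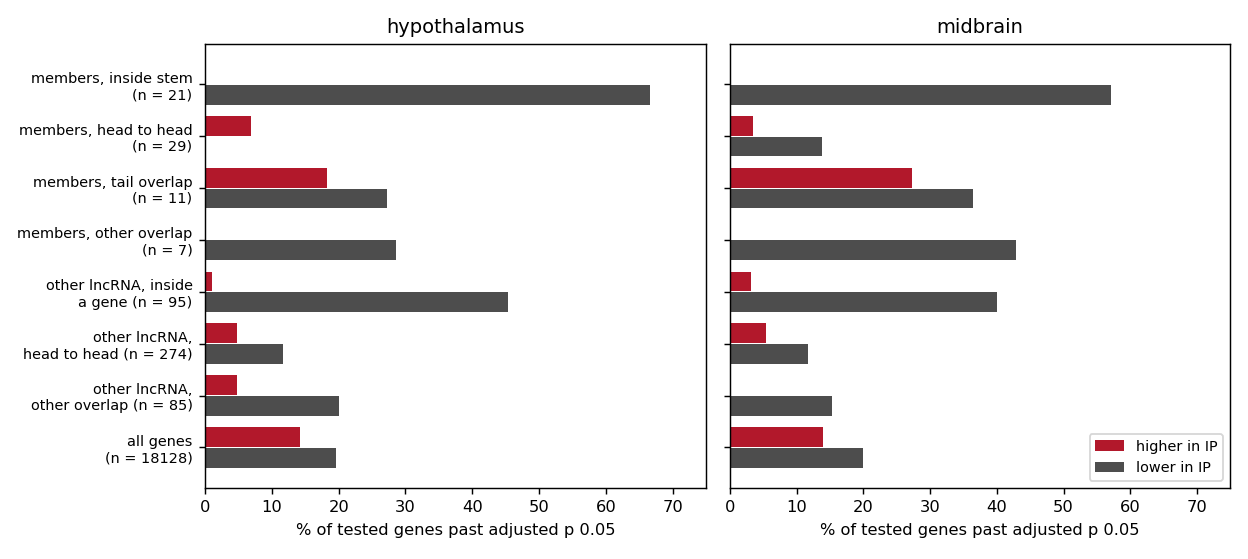
Share of tested genes (percent, axis from 0) higher (red) and lower (grey) in IP than in input at an edgeR adjusted p under 0.05, for members by position, for other long noncoding genes by position and for all genes, with the number tested in parentheses. Members inside the stem gene reach 66.7% lower in the hypothalamus and 57.1% in the midbrain, and 19.6% and 19.9% of all genes do. Of these 21 members 17 reached the filter's minimum through the inputs alone. Their share is thus bound up with the filter, to an extent that was not measured.

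Among the 13 members tested whose stems encode transcription factors, none was higher and 2 were lower in the hypothalamus IP, and none was higher and 7 were lower in the midbrain IP. These are 15.4% and 53.8% lower, where 19.6% and 19.9% of all genes were lower, and 6 of the 13 entered through the inputs alone. Emx2os lies head to head with Emx2, a homeobox factor that patterns the forebrain, on the minus strand of chromosome 19 from 59425104 to 59458635. Its level was 7.15, 10.7 and 6.09 CPM in the hypothalamus IP, against 2.90, 4.67 and 4.15 CPM in its input, and 1.98, 4.07 and 0.317 CPM in the midbrain IP, against 16.8, 25.2 and 13.8 CPM in its input. The groups did not overlap in either region, and their order was opposite, with the IP above the input in the hypothalamus and below it in the midbrain. The change was 1.03 ± 0.60 in the hypothalamus (adjusted p = 0.211) and -3.13 ± 0.64 in the midbrain (adjusted p = 0.00315). The difference between the regions in this change was 4.16 ± 0.87 and did not pass (adjusted p = 0.158).

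Emx2 had the same order as Emx2os. Its level was 3.4, 11.2 and 3.50 CPM in the hypothalamus IP, against 2.34, 1.11 and 2.52 CPM in its input, and 0.871, 1.04 and 0.254 CPM in the midbrain IP, against 6.67, 10.3 and 7.00 CPM in its input, again with no overlap in either region. The changes were 1.60 ± 0.58 in the hypothalamus (adjusted p = 0.0502) and -3.46 ± 0.63 in the midbrain (adjusted p = 0.00147), with a regional difference of 5.06 ± 0.85 (adjusted p = 0.0621). No change of Emx2os relative to Emx2 was detected: the log2 ratio differed between IP and input by -0.43 ± 0.54 in the hypothalamus and -0.05 ± 0.54 in the midbrain (limma adjusted p = 0.588 and 0.954).

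Six3os1 overlaps Six3 on the other strand, on chromosome 17 from 85600651 to 85618398. Its level was 1.47, 2.61 and 4.48 CPM in the hypothalamus IP, against 17.6, 22.2 and 19.0 CPM in its input, and 0.170, 1.80 and 0.275 CPM in the midbrain IP, against 5.71, 9.00 and 6.01 CPM in its input. Every IP library lay below every input library of its region. Six3os1 fell by 2.78 ± 0.68 in the hypothalamus (adjusted p = 0.00787) and fell by 3.19 ± 0.71 in the midbrain (adjusted p = 0.0048). Six3 fell as well, to 28.4, 21.4 and 15.2 CPM in the hypothalamus IP, against 59.2, 96.3 and 93.3 CPM in its input (-1.94 ± 0.40, adjusted p = 0.00315). In the midbrain Six3 had 0.914, 3.36 and 2.46 CPM in the IP, against 25.9, 48.5 and 38.3 CPM in the input (-4.06 ± 0.45, adjusted p = 5.57e-05). For Six3, too, no IP library reached an input library of its region.

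**Figure D3:**
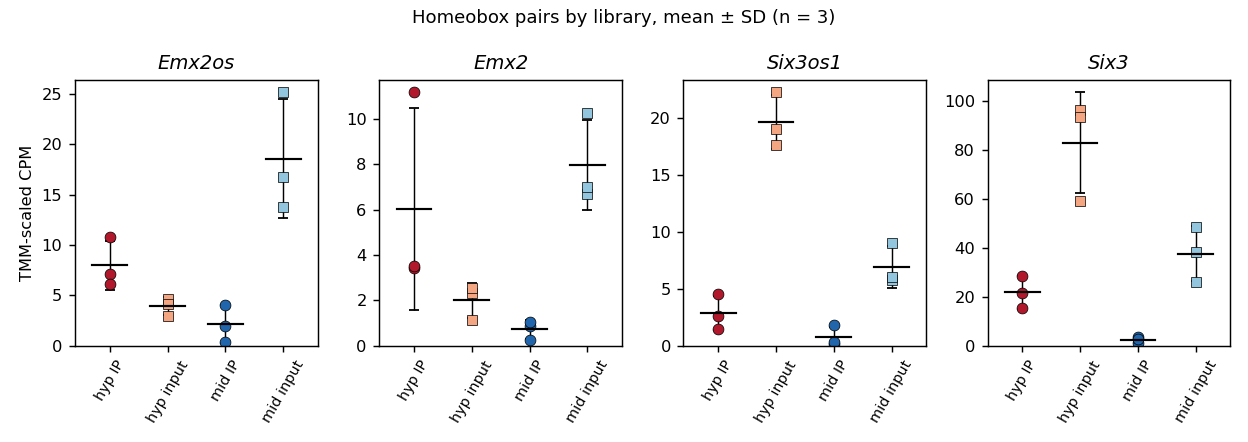
TMM-scaled CPM of Emx2os, Emx2, Six3os1 and Six3 in the 3 libraries of each group (points), with the mean (line) and SD (bars); the axes start at 0 and differ between panels. Emx2os and Emx2 stand above the input in the hypothalamus IP and below it in the midbrain IP, and Six3os1 and Six3 stand below the input in both regions.

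Sp3os and Zfp85os, which were above 1 CPM in every library, passed in neither region. Sp3os, head to head with the GC-box factor Sp3, had 10.7, 5.56 and 7.92 CPM in the hypothalamus IP, against 3.52, 5.44 and 5.48 CPM in its input, and 6.55, 5.07 and 5.61 CPM in the midbrain IP, against 2.48, 3.57 and 3.76 CPM in its input (0.74 ± 0.32 and 0.81 ± 0.32, adjusted p = 0.0924 and 0.0679). All IP libraries of each region lay above its inputs. Sp3 was lower in the hypothalamus IP, with 30.8, 53.1 and 52.6 CPM, than in its input, with 63.8, 69.8 and 73.6 CPM (-0.60 ± 0.20, adjusted p = 0.0332), and its midbrain value of -0.54 ± 0.20 did not pass (adjusted p = 0.0528). The hypothalamus call of Sp3 was lost without replicate 1 of the IP, where it was -0.38 (adjusted p = 0.0774), without replicate 2 or 3 of the input (0.0811 and 0.12) and without Rn45s (0.0608). The Sp3os to Sp3 ratio was higher in the IP by 1.36 ± 0.42 and 1.37 ± 0.42 in the hypothalamus and the midbrain (limma adjusted p = 0.0264 and 0.0248). Without replicate 1 of the hypothalamus IP the ratio there was 0.88 (adjusted p = 0.109), and the call was lost too without any 1 of the 3 hypothalamus inputs. In the midbrain it was lost without replicate 1 of the IP or of the input (adjusted p = 0.0888 and 0.0987). Zfp85os, which overlaps a zinc finger gene, had 3.95, 10.8 and 6.42 CPM in the hypothalamus IP, against 2.38, 5.44 and 6.50 CPM in its input, and 5.65, 8.31 and 9.65 CPM in the midbrain IP, against 5.23, 6.01 and 4.9 CPM in its input. IP and input overlapped in both regions (adjusted p = 0.329 and 0.344). Zfp85 passed in neither (adjusted p = 0.873 and 0.81).

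The other members opposite transcription factors had at most 286 counts in a library. Nkx2-2os, opposite a factor of ventral progenitors and oligodendrocyte precursors, had 7, 2 and 4 counts in the hypothalamus IP, against 57, 29 and 59 in its input, and 5, 0 and 0 in the midbrain IP, against 41, 44 and 60 in its input. It fell in both regions (-3.49 and -4.80, adjusted p = 0.0268 and 0.00868), as Nkx2-2 did (-2.60 and -3.29, adjusted p = 0.00073 and 0.000205). Foxd2os, with 1 count in the midbrain IP and 64 in its input, was 65.7-fold lower (95% counting interval 11.4 to 2640, adjusted p = 0.0119). The forkhead gene Foxd2 was lower there too (adjusted p = 0.0287). Foxl2os had no count in the midbrain IP and was at least 5.24-fold lower (adjusted p = 0.0319). Its forkhead stem Foxl2 was lower in both regions (adjusted p = 0.0191 and 0.0219). Zfhx2os was lower in the midbrain (-4.72, adjusted p = 0.0296) while Zfhx2, a zinc finger homeobox gene, did not pass (0.16, adjusted p = 0.671). As 73.1% of the exon bases of Zfhx2os are exonic in genes of the other strand, its counts are uncertain. The midbrain calls of Foxl2os and Zfhx2os were lost in 5 and 4 of the 12 fits that each left out 1 library, with adjusted p up to 0.141 and 0.0996 over all alternatives. Otx2os1, opposite the midbrain and choroid plexus factor Otx2, had 1, 1 and 0 counts in the midbrain IP and 11, 12 and 39 in its input, which was 31.8-fold lower (95% counting interval 8.45 to 269, adjusted p = 0.0334). The input library with 39 counts was replicate 3, and the 4 ependymal and choroid plexus markers summed to 2.42 to 33.9 CPM over the midbrain IPs and to 18.2 to 903 CPM over the midbrain inputs; their part in the call was not tested. The Otx2os1 call was lost without that library (adjusted p = 0.124) and in 7 of the other 11 such fits. Tbx3os2, opposite a T-box gene, was uneven between libraries, with 153, 62 and 18 counts in the hypothalamus IP, against 47, 286 and 17 in its input, and 0, 0 and 5 in the midbrain IP, against 8, 17 and 3 in its input. Tbx3os2, Msx1os, Zeb2os and Zfp652os passed in neither region. With the replicate number as a block, Msx1os passed in the hypothalamus (adjusted p = 0.0395).

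Among 26 members whose stems act in signalling, vesicle traffic, synapses or channels, 2 were higher in the hypothalamus IP and 10 lower, and in the midbrain IP 1 was higher and 7 were lower. In the hypothalamus that is 7.69% higher and 38.5% lower (all genes: 14.2% and 19.6%), and in the midbrain 3.85% and 26.9% (all genes: 14% and 19.9%), with 15 of the 26 entering through the inputs alone. Pcsk2, the convertase that cuts neuropeptide precursors, has a pair of members. Pcsk2os1, head to head with it, had 3.95, 12.7 and 10.8 CPM in the hypothalamus IP, against 3.77, 2.76 and 3.44 CPM in its input, and 7.59, 6.39 and 6.41 CPM in the midbrain IP, against 4.44, 3.01 and 3.55 CPM in its input. Every IP library lay above every input library of its region. Pcsk2os1 rose in the hypothalamus (1.46 ± 0.38, adjusted p = 0.0116, or 0.0542 without replicate 2 of the IP) and was not called in the midbrain (0.89 ± 0.38, adjusted p = 0.0894). Pcsk2os2, inside the gene, fell in the hypothalamus, with 0, 0 and 6 counts in the IP and 50, 54 and 99 in the input (-5.06, adjusted p = 0.0176, or 0.0527 without replicate 2 of the IP), and its midbrain change did not pass (-3.14, adjusted p = 0.0761). Pcsk2 averaged 225 ± 142 CPM in the hypothalamus IP and 103 ± 54.5 CPM in its input (SD, n = 3 each), a change of 1.14 ± 0.45 (adjusted p = 0.0732, or 0.000113 with the replicate block).

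Rab10os runs into the end of Rab10, a small GTPase of vesicle traffic. Its level was 19.2, 17.4 and 16.4 CPM in the hypothalamus IP, against 10.1, 19.1 and 14.1 CPM in its input, and 21.3, 19.6 and 18.1 CPM in the midbrain IP, against 11.6, 13.8 and 12 CPM in its input. The groups overlapped in the hypothalamus (0.29 ± 0.22, adjusted p = 0.345) and stood apart in the midbrain, where Rab10os was higher in the IP (0.65 ± 0.22, adjusted p = 0.0388). That call was lost without any 1 of the 6 midbrain libraries or replicate 3 of the hypothalamus input, with adjusted p up to 0.111. Rab10 passed in neither region (adjusted p = 0.0959 and 0.416; 0.000565 in the hypothalamus with the replicate block).

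Rab26os, inside the gene of a secretory vesicle GTPase, had the highest level of the members inside a stem and did not pass. It had 4.93, 6.81 and 3.77 CPM in the hypothalamus IP, against 2.27, 8.23 and 6.79 CPM in its input, and 2.85, 5.55 and 3.98 CPM in the midbrain IP, against 2.06, 5.52 and 6.72 CPM in its input, so that the groups overlapped (-0.16 ± 0.52 and -0.21 ± 0.52, adjusted p = 0.845 and 0.795). Rab26 rose in the midbrain, with 23.8, 29.4 and 25.2 CPM in the IP and 10.8, 12.8 and 9.91 CPM in the input (1.23 ± 0.23, adjusted p = 0.00202), and not in the hypothalamus (adjusted p = 0.25). Slc7a6os encodes a protein whose yeast counterpart takes RNA polymerase II into the nucleus. It had 23.8, 24.4 and 21.4 CPM in the hypothalamus IP, against 13.3, 17.9 and 16.0 CPM in its input, and 13.9, 19.6 and 17.6 CPM in the midbrain IP, against 15.0, 16.4 and 14.7 CPM in its input. The groups stood apart in the hypothalamus (0.56 ± 0.18, adjusted p = 0.0334) and overlapped in the midbrain (0.15 ± 0.18, adjusted p = 0.579). The hypothalamus call was lost without replicate 1 or 2 of its IP or replicate 1 or 3 of its input, and it had adjusted p = 0.199 under library size alone. Slc7a6, an amino acid transporter gene, fell in both regions (-1.52 ± 0.31 and -1 ± 0.31, adjusted p = 0.00314 and 0.0258), and the ratio of the pair was higher in the IP by 2.16 ± 0.36 and 1.12 ± 0.36 (limma adjusted p = 0.000628 and 0.0307). The midbrain call of Slc7a6 was lost without replicate 1 or 2 of the IP or 1 or 3 of the input (adjusted p up to 0.0983). That of the ratio was lost without replicate 2 or 3 of the midbrain IP or 1 or 3 of its input (up to 0.113).

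Several members inside or at the end of synaptic genes had IP libraries at or near 0. Grin1os, Nrg3os, Dnm3os, Plxna4os1 and Atcayos all entered through the inputs alone, so their low IP levels are bound up with the filter. Grin1os, inside the gene of the obligate NMDA receptor subunit, had no count in the hypothalamus IP and 20, 6 and 25 in its input (at least 6.01-fold lower, adjusted p = 0.00957). Grin1 did not pass (0.29, adjusted p = 0.615). Of the exon bases of Grin1os, 45.2% are exonic on the other strand. In the midbrain Grin1os had 5, 0 and 5 counts in the IP and 27, 17 and 50 in the input and did not pass (adjusted p = 0.0618). Nrg3os, inside the gene of an ErbB4 ligand, was at least 4.58-fold lower in the hypothalamus IP, which had no count (adjusted p = 0.00956), and in the midbrain it was 25.7-fold lower (95% counting interval 4.2 to 1050, adjusted p = 0.0395). Dnm3os, inside the dynamin gene Dnm3, had 0, 11 and 0 counts in the hypothalamus IP and 38, 81 and 53 in its input (-3.97, adjusted p = 0.0236, or 0.0615 without replicate 2 of the input). In the midbrain it had 0, 1 and 0 in the IP and 88, 68 and 53 in the input and was 215-fold lower (95% counting interval 38.1 to 8520, adjusted p = 0.00346). Dnm3 passed in neither region (adjusted p = 0.928 and 0.739). Plxna4os1, inside the gene of a semaphorin receptor, was at least 3.18-fold lower in the hypothalamus IP (adjusted p = 0.0171), and in the midbrain it was 47.2-fold lower (95% counting interval 12.7 to 396, adjusted p = 0.0146). Atcayos, at the end of the caytaxin gene, had 7, 6 and 37 counts in the hypothalamus IP, against 68, 222 and 170 in its input, and 6, 7 and 14 in the midbrain IP, against 117, 70 and 71 in its input. No IP library of Atcayos reached an input library of its region (-3.21 and -3.25, adjusted p = 0.00682 and 0.00715). Atcay passed in neither (0.50 and 0.43, adjusted p = 0.0831 and 0.126).

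Of the rest of this set, Bcas3os1 had no count in an IP of either region and was at least 6.18-fold lower in the hypothalamus and 6.93-fold lower in the midbrain (adjusted p = 0.00693 and 0.00632). Rab11fip4os1 was 23.2-fold lower (95% counting interval 6.05 to 197, adjusted p = 0.0194) in the hypothalamus and 92.4-fold lower (95% counting interval 16.2 to 3690, adjusted p = 0.00529) in the midbrain. Its stem, a Rab11 effector gene, rose in the hypothalamus (0.57, adjusted p = 0.0105). Prkag2os1 was 50.4-fold lower (95% counting interval 8.64 to 2030, adjusted p = 0.0179) in the hypothalamus, where Prkag2, a subunit of the energy sensor AMPK, was higher (0.91, adjusted p = 0.00143). Ppp2r2cos, inside a phosphatase subunit gene, was lower in the hypothalamus (-3.18, adjusted p = 0.0473), a call kept in 2 of the 12 fits that each left out 1 library. Igf2os was at least 6.71-fold lower in the midbrain IP (adjusted p = 0.0431, kept in 4 of those 12 fits), where the growth factor gene Igf2 fell too (-4.79, adjusted p = 0.000259). The midbrain call of Nrg3os was likewise kept in 4 of the 12. Gad1os passed in neither region (-3.24 and -2.51, adjusted p = 0.0624 and 0.141; 0.0382 in the hypothalamus with the replicate block). Gad1, which makes GABA, fell in both (-2.50 and -3.36, adjusted p = 6.8e-05 and 1.22e-05). Kcnd3os, Kcnmb4os2, Frs3os, Dbhos, Arhgap20os, Chn1os3, Map2k3os, Ppp1r3fos, Tspan2os and Stamos passed in neither region.

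The other 40 members tested face genes of enzymes, RNA processing, chromatin or less known roles, and 4 of them were higher in the IP in each region, with 8 lower in the hypothalamus and 10 in the midbrain. These shares, 10% higher in each region and 20% and 25% lower, are near those of all genes for the lower calls, and 15 of the 40 entered through the inputs alone. Chd3os had the highest level of all members and lies on chromosome 11 from 69340796 to 69342641 in GRCm38.p6. RefSeq lists it under the symbol Rnf227 and as long noncoding. That class rests on RefSeq alone, since Chd3os was not placed in GENCODE and its reading frame was not measured. Whether Chd3os encodes a protein was not tested. It had 540, 432 and 349 CPM in the hypothalamus IP, against 142, 139 and 136 CPM in its input, and 672, 489 and 341 CPM in the midbrain IP, against 189, 177 and 129 CPM in its input. The groups stood apart in both regions, and Chd3os was higher in the IP by 1.66 ± 0.24 (adjusted p = 0.000311) and 1.60 ± 0.24 (adjusted p = 0.000411). Chd3, a remodeller of the NuRD complex, had 359, 383 and 371 CPM in the hypothalamus IP, against 335, 412 and 474 CPM in its input, and passed in neither region (adjusted p = 0.518 and 0.673). The Chd3os to Chd3 ratio was higher in the IP by 1.76 ± 0.29 and 1.47 ± 0.29 (limma adjusted p = 0.000583 and 0.00193).

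Wdr83os encodes a small membrane protein of the endoplasmic reticulum and has nearly its whole promoter window, printed above, in common with Wdr83, a scaffold of kinase signalling. It had 171, 79.0 and 86.1 CPM in the hypothalamus IP, against 35.2, 38.4 and 38.7 CPM in its input, and 147, 82.2 and 73.0 CPM in the midbrain IP, against 31.1, 32.3 and 30.8 CPM in its input. All IP libraries lay above all inputs, with changes of 1.58 ± 0.30 (adjusted p = 0.00206) and 1.68 ± 0.31 (adjusted p = 0.00146). Wdr83 had 16.0, 14.4 and 13.0 CPM in the hypothalamus IP, against 8.53, 9.07 and 10.2 CPM in its input (0.65 ± 0.24, adjusted p = 0.0513, or 0.0317 with the replicate block), and was not called in the midbrain (0.47 ± 0.23, adjusted p = 0.146). The ratio of the pair was higher in the midbrain IP by 1.12 ± 0.32 (limma adjusted p = 0.0167) and did not pass in the hypothalamus (0.85 ± 0.32, adjusted p = 0.0613, or 0.0146 with the block). Its midbrain call was lost without replicate 1 of the IP or 2 of the input (adjusted p up to 0.0787). Per kilobase of exon, the level of Wdr83os in the hypothalamus IP was 108 CPM and that of Wdr83 5.13 CPM, but 52.3% of the exon bases of Wdr83os are exonic on the other strand, which leaves the counts of the pair uncertain.

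Cebpzos, a protein-coding member at the end of Cebpz, was higher in both IPs. It had 26.7, 28.0 and 24.0 CPM in the hypothalamus IP, against 9.18, 11 and 12.6 CPM in its input, and 29.7, 23.3 and 19.5 CPM in the midbrain IP, against 7.84, 8.03 and 6.95 CPM in its input, with no overlap in either region. The changes were 1.26 ± 0.20 (adjusted p = 0.00064) and 1.67 ± 0.20 (adjusted p = 0.000115). Cebpz passed in neither region (adjusted p = 0.934 and 0.961). The ratio was higher in the IP by 1.33 ± 0.31 and 1.65 ± 0.31 (limma adjusted p = 0.00518 and 0.00133). Fam219aos, in contrast, was higher together with its stem. It had 61.3, 84.2 and 58.8 CPM in the hypothalamus IP, against 44.0, 53.1 and 48.8 CPM in its input, and 70.5, 68.2 and 67.9 CPM in the midbrain IP, against 45.1, 46.9 and 39.7 CPM in its input, and no IP library overlapped an input. The changes were 0.49 ± 0.16 and 0.65 ± 0.16 for Fam219aos (adjusted p = 0.0323 and 0.00792) and 0.58 ± 0.15 and 0.57 ± 0.15 for Fam219a (adjusted p = 0.00956 and 0.00999). As 66.2% of the exon bases of Fam219aos are exonic on the other strand, the counts of this pair are uncertain too. The hypothalamus call of Fam219aos was lost without replicate 2 of the IP or replicate 1 or 3 of the input, and under library size alone (adjusted p = 0.213).

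The other head-to-head members with printed promoters passed in neither region. Cep83os, opposite a centriole gene needed for cilia, had 57.2, 53.6 and 54.2 CPM in the hypothalamus IP, against 56.1, 58.9 and 56.4 CPM in its input, and 86.3, 59.9 and 67.9 CPM in the midbrain IP, against 58.4, 54.2 and 51.7 CPM in its input. Its groups overlapped in the hypothalamus (-0.05 ± 0.15, adjusted p = 0.808) and not in the midbrain (0.38 ± 0.15, adjusted p = 0.0618). Cep83 passed in neither region (adjusted p = 0.432 and 0.365). Fam120aos, opposite an RNA-binding protein gene, had 11, 10.2 and 9.01 CPM in the hypothalamus IP, against 7.54, 14.4 and 13.6 CPM in its input, and 13.0, 10.4 and 8.27 CPM in the midbrain IP, against 11.5, 18.9 and 18.8 CPM in its input, with overlap in both regions (adjusted p = 0.569 and 0.11). Fam120a had log2 values of -0.02 and 0.02 (adjusted p = 0.924 and 0.911). Ccpg1os is protein-coding and lies opposite a receptor for autophagy of the endoplasmic reticulum. It had 4.13, 13.1 and 11.4 CPM in the hypothalamus IP, against 3.85, 10 and 7.21 CPM in its input, and 4.31, 7.33 and 11.1 CPM in the midbrain IP, against 3.73, 4.87 and 9.13 CPM in its input (adjusted p = 0.546 and 0.632). Replicate 1 was the lowest library for Ccpg1os in all 4 groups and the highest for Ccpg1, which passed in neither region (adjusted p = 0.176 and 0.408; 0.00139 in the hypothalamus with the replicate block).

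Brip1os, Mccc1os, Mkln1os and Ino80dos, also head to head with their stems, passed in neither region. Brip1os, opposite a DNA repair helicase gene, had 12.8, 3.38 and 3.09 CPM in the hypothalamus IP, against 13.0, 7.64 and 6.24 CPM in its input, and 12.1, 5.59 and 6.31 CPM in the midbrain IP, against 16.4, 9.70 and 8.66 CPM in its input (adjusted p = 0.524 and 0.486). Replicate 1 was its highest library in all 4 groups, and Brip1 itself reached at most 1.04 CPM in a library. Mccc1os had 5.96, 4.79 and 5.94 CPM in the hypothalamus IP, against 6.32, 3.72 and 5.13 CPM in its input, and 5.38, 7.91 and 8.02 CPM in the midbrain IP, against 7.34, 7.13 and 6.86 CPM in its input (adjusted p = 0.736 and 0.998). Its groups overlapped in both regions. Mccc1, a subunit of a leucine-degrading carboxylase, fell by 1.18 ± 0.27 in the hypothalamus and fell by 1.27 ± 0.27 in the midbrain (adjusted p = 0.00578 and 0.00408). The Mccc1os to Mccc1 ratio was higher in the IP by 1.38 ± 0.34 and 1.21 ± 0.34 (limma adjusted p = 0.00765 and 0.0145), the midbrain call being lost without replicate 2 of the IP or 3 of the input (up to 0.0781). Ino80dos had 2.76, 6.87 and 6.97 CPM in the hypothalamus IP, against 3.12, 4.35 and 4.47 CPM in its input, and 3.85, 3.19 and 4.57 CPM in the midbrain IP, against 4, 3.73 and 5.04 CPM in its input, again with overlap (adjusted p = 0.35 and 0.808). Ino80d, a subunit of the INO80 remodeller, fell by 0.89 ± 0.14 in the hypothalamus and fell by 0.95 ± 0.14 in the midbrain (adjusted p = 0.000624 and 0.000432). Their ratio was higher in the hypothalamus IP (1.27 ± 0.36, limma adjusted p = 0.017) and was not called in the midbrain (0.81 ± 0.36, adjusted p = 0.107). The hypothalamus call of that ratio was lost without replicate 2 or 3 of the IP or 1 of the input (adjusted p up to 0.0804). Mkln1os, opposite the ubiquitin ligase subunit muskelin, had 1.11, 5.03 and 7.06 CPM in the hypothalamus IP, against 2.65, 3.90 and 5.88 CPM in its input, and 3.87, 5.20 and 10.1 CPM in the midbrain IP, against 4.04, 6.16 and 4.85 CPM in its input (adjusted p = 0.925 and 0.678). Mkln1 was lower in the hypothalamus IP (-0.71 ± 0.18, adjusted p = 0.00976) but its midbrain value did not pass (adjusted p = 0.163).

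Srrm4os and Slain1os were far lower in the IP in both regions, and both entered through the inputs alone. Srrm4os runs into the end of Srrm4, the neural splicing factor of microexons, on chromosome 5 from 116438720 to 116465487. It had 0.141, 0.0918 and 0.0562 CPM in the hypothalamus IP, against 6.80, 6.32 and 5.76 CPM in its input, and 0.128, 0.192 and 0.148 CPM in the midbrain IP, against 4.46, 3.79 and 9.01 CPM in its input. All IP libraries lay far below all inputs, with 7, 5 and 3 counts in the IP of the hypothalamus and 6, 10 and 7 in that of the midbrain. Srrm4os fell by 6 ± 0.52 in the hypothalamus (adjusted p = 1.1e-05) and fell by 5.18 ± 0.50 in the midbrain (adjusted p = 2.26e-05). Srrm4 had 134, 139 and 138 CPM in the hypothalamus IP, against 128, 147 and 152 CPM in its input, and 87.7, 99.6 and 128 CPM in the midbrain IP, against 78.6, 83.0 and 131 CPM in its input, and passed in neither region (adjusted p = 0.857 and 0.717). The ratio of the pair changed by -5.91 ± 0.55 and -5.16 ± 0.55 (limma adjusted p = 6.77e-06 and 2.03e-05).

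Slain1os lies inside Slain1, a gene of microtubule growth, on chromosome 14 from 103692983 to 103699442. It had 0, 1 and 1 counts in the hypothalamus IP and 88, 259 and 254 in its input, which was 309-fold lower (95% counting interval 85.2 to 2560, adjusted p = 0.000494). In the midbrain it had 12, 66 and 2 counts in the IP and 245, 298 and 147 in the input (-3.18 ± 0.87, adjusted p = 0.0142, or 0.0514 without replicate 1 of the IP). Every IP library lay below every input library of its region. Slain1 was lower as well, with 45.3, 43.6 and 55.9 CPM in the hypothalamus IP, against 102, 88.0 and 108 CPM in its input (-1.04 ± 0.13, adjusted p = 0.000153), and 57.9, 60.6 and 61.2 CPM in the midbrain IP, against 156, 152 and 154 CPM in its input (-1.36 ± 0.13, adjusted p = 2.86e-05). The ratio of Slain1os to Slain1 was lower in both IPs (limma adjusted p = 0.00038 and 0.0472). In the midbrain that ratio, -2.80 ± 0.99, was -1.63 without replicate 3 of the IP (adjusted p = 0.187), and its call was also lost without replicate 1 of the IP or any 1 of the 6 inputs of both regions.

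Further members of this set were lower with few IP counts, and all of these entered through the inputs alone. Sorbs2os, inside the adaptor gene Sorbs2, had 3, 2 and 4 counts in the hypothalamus IP and 96, 70 and 126 in its input (-5.02, adjusted p = 0.000517), and in the midbrain it was 228-fold lower (95% counting interval 40.5 to 9040, adjusted p = 0.000167). Ppifos, at the end of the cyclophilin D gene Ppif, had 0, 0 and 1 counts in the hypothalamus IP and 76, 126 and 85 in its input and was 295-fold lower (95% counting interval 52.6 to 11700, adjusted p = 0.00214). Ppif rose there (0.82, adjusted p = 0.00232). The counts of Ppifos and Sorbs2os are uncertain, since 79.5% and 42.5% of their exon bases are exonic on the other strand. Bcas1os2 had no count in the hypothalamus IP and was at least 18.1-fold lower (adjusted p = 0.00249). Bcas1, a gene of myelinating oligodendrocytes, fell too (-4.47, adjusted p = 1.13e-05). Dnmt3aos, inside a DNA methyltransferase gene, had no count in the midbrain IP and was at least 17.3-fold lower (adjusted p = 0.0189), but it had 0, 0 and 49 counts in the hypothalamus IP. Far1os, inside a fatty acyl reductase gene, was 44.8-fold lower (95% counting interval 12 to 375, adjusted p = 0.00798) in the hypothalamus and at least 7.41-fold lower in the midbrain (adjusted p = 0.00384). Tbc1d22bos was at least 3.44-fold lower in the hypothalamus (adjusted p = 0.0122), and in the midbrain it was 56.5-fold lower (95% counting interval 9.72 to 2270, adjusted p = 0.014). Uckl1os was lower in the hypothalamus (a log2 change of -3.62, adjusted p = 0.0457, or 0.0567 with the replicate block). Appbp2os and Tmem150cos were lower in the midbrain (adjusted p = 0.0232 and 0.0326).

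Some calls named above were lost when 1 library was left out, and the p given for each is the highest over all alternatives tried. The hypothalamus call of Nkx2-2os was lost without replicate 2 or 3 of its IP or 1 or 3 of its input (adjusted p up to 0.0804), and that of Prkag2os1 without replicate 2 or 3 of the IP or 2 of the input (up to 0.0707). Rab11fip4os1 lost it without replicate 1 or 3 of the IP or the input (up to 0.135), and Uckl1os in 8 of the 12 fits (up to 0.12). The midbrain call of Appbp2os was lost without replicate 1 or 3 of the IP or 2 of the input (up to 0.0726), and that of Tmem150cos without any 1 of the IP libraries or replicate 3 of the input (up to 0.15). Plxna4os1 lost its midbrain call without replicate 1 of the IP or 2 of the input (up to 0.0626), and Tbc1d22bos without replicate 2 or 3 of the IP (up to 0.0542). Bcas1os2 was also lower in the midbrain IP, with 9, 14 and 0 counts against 41, 94 and 103 in the input (-3.46, adjusted p = 0.0284), a call lost without replicate 1 of the IP or 2 or 3 of the input (up to 0.0844). In the fit without replicate 1, which left 2 libraries a group, further calls were lost, namely those of Far1os, Grin1os, Plxna4os1 and Tbc1d22bos in the hypothalamus (adjusted p up to 0.0922) and of Bcas3os1, Foxd2os and Ppifos in the midbrain (up to 0.0973). Nrg3os did not reach the filter's minimum in that fit.

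The 18 members of this set not yet named passed in neither region. Among them were Phtf1os, Ggnbp2os, Tomm6os, Abhd11os, Hk1os, Toporsos, Fbxl12os, Atad3aos, Med9os, Rbm3os, Man2c1os, Kank4os, Plet1os, Fancd2os, Tmem51os1, Smc2os and Uchl1os. Some of their stems rose in both regions, among them the mitochondrial import gene Tomm6 (1.54 and 1.48, adjusted p = 0.00401 and 0.0051) and the neuronal ubiquitin hydrolase gene Uchl1 (0.91 and 0.98, adjusted p = 0.00399 and 0.00276).

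**Figure D4:**
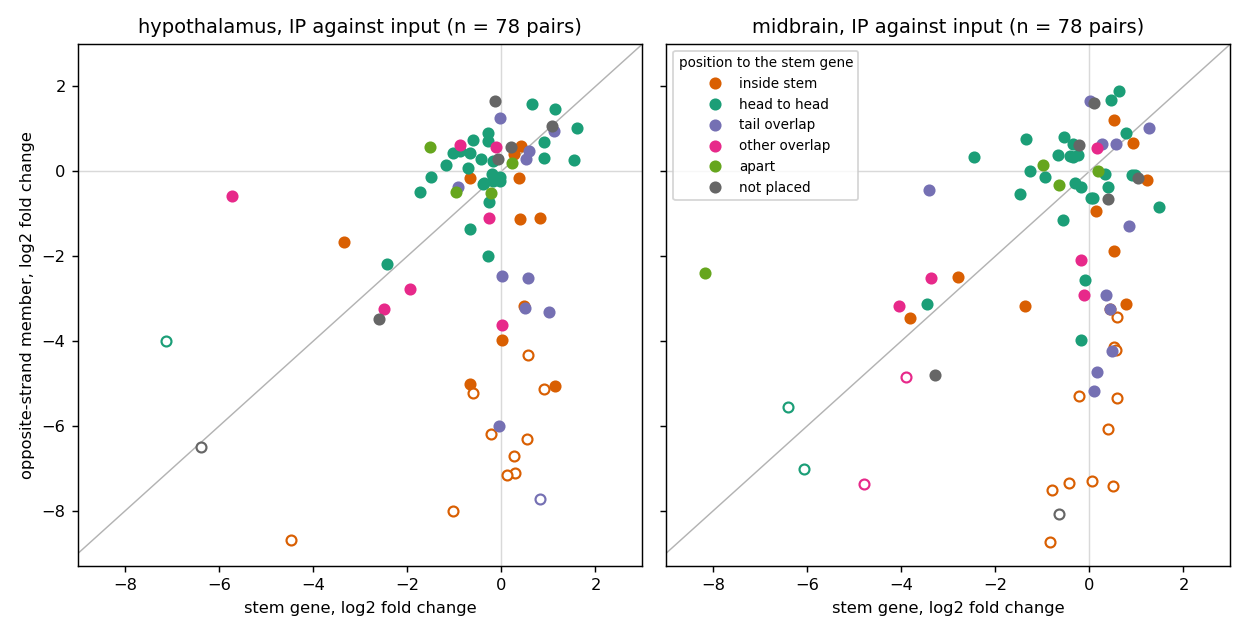
Log2 fold change, IP against input, of 78 members (vertical axis) and of their stem genes (horizontal axis) in the hypothalamus and the midbrain, coloured by position; open circles have at most 3 counts over the 3 IP libraries, and their depth on the axis depends on the fit. Most members inside the stem lie below 0, while their stems lie on both sides of 0. Of those stems 5 were higher and 6 lower in the hypothalamus, and 6 higher and 5 lower in the midbrain. Head-to-head members have medians of 0.14 in the hypothalamus and -0.10 in the midbrain.

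Each member was also set against its stem gene in the same libraries, as the log2 ratio of the pair tested with limma over 5056 opposite-strand gene pairs. In the hypothalamus the ratio was higher in the IP for 7 of 78 member pairs and lower for 19, where 28.7% of all pairs changed in either direction. In the midbrain it was higher for 7 of the 78 and lower for 22, where 29.2% of all pairs changed in either direction. How many of all pairs changed in each direction was not counted, so the counts by direction have no like share beside them. Chd3os, Cebpzos, Slc7a6os, Sp3os and Mccc1os had a higher ratio in both regions, Ino80dos and Igf2os in the hypothalamus, and Wdr83os and Tbx3os2 in the midbrain. Igf2os reached the filter's minimum in 1 of the 6 IP libraries, and Tbx3os2 had few counts in the midbrain IP, as given above. The part of low counts in the ratios of Igf2os and Tbx3os2 was not tested. Members inside the stem gave 13 of the 19 lower ratios in the hypothalamus, 15 of the 22 in the midbrain and none of the higher ones. As 17 of the 21 members tested inside the stem entered through the inputs alone, their low ratios in the IP are bound up with the filter. The extent of this was not measured. Of the 20 members lower in the hypothalamus IP, 6 had a stem that was lower, 4 one that was higher and 10 one that did not pass. In the midbrain 11 of the 24 had a lower stem, 3 a higher one and 10 one that did not pass. Per kilobase of exon, the level of the member exceeded that of the stem in 15 of 73 pairs in the hypothalamus IP, 14 in its input, 16 in the midbrain IP and 12 in its input. The median ratio of these levels was 0.0748 in the hypothalamus IP, 0.12 in its input, 0.0447 in the midbrain IP and 0.0927 in its input.

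Few members differed between the regions. Libraries of one replicate number bore different lane numbers in the labels for hypothalamus and midbrain, and the part of this in regional differences was not tested. In the IPs Slain1os alone passed, being 43-fold lower in the hypothalamus IP, with 2 counts, than in the midbrain IP, with 80 (95% counting interval 11.5 to 361, adjusted p = 0.0345), where 2.21% of all genes were lower, 2.05% higher and 4.26% changed either way. Of the 80 counts 66 lay in 1 library, midbrain IP replicate 2, a spread that the counting interval leaves out. Without that library the adjusted p was 0.12. The call was also lost in 7 of the other 11 fits that each left out 1 library. Emx2os was 1.91 ± 0.62 in the hypothalamus IP against the midbrain IP (adjusted p = 0.112, or 0.0113 with the replicate block), and Six3os1 was 1.91 ± 0.68 (adjusted p = 0.154, or 0.026 with the block). Their stems passed, with Emx2 higher by 3.06 ± 0.62 (adjusted p = 0.0169) and Six3 by 3.27 ± 0.43 (adjusted p = 0.00129); without replicate 2 of the hypothalamus IP, Emx2 had adjusted p = 0.0649. The ratio of Tmem150cos to its stem was higher in the hypothalamus IP than in the midbrain IP (limma adjusted p = 0.0483), with 44, 15 and 3 counts of Tmem150cos against 2, 0 and 1, where 2.69% of all pairs changed. That call was lost in 11 of the 12 fits that each left out 1 library. With the block, the ratio also passed for Slain1os (lower, limma adjusted p = 0.0342) and Slc7a6os (higher, adjusted p = 0.0286).

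In the inputs edgeR called no member between the regions, where 1% of all genes were higher in the hypothalamus, 0.601% lower and 1.61% different either way. There 5 members had an unadjusted p under 0.05. DESeq2 called Emx2os, which was at -2.25 ± 0.62 in edgeR (adjusted p = 0.117, or 0.0132 with the replicate block). Over all genes DESeq2 called 429 higher and 333 lower between the inputs. No member passed the edgeR test of a regional difference in IP against input, where 0.0772% of all genes did and 0.0607% did with the higher value in the hypothalamus. In that test 9 members had an unadjusted p under 0.05. The share of all genes under that unadjusted threshold was not counted in either comparison. DESeq2 called Emx2os (adjusted p = 0.000366), and over all genes it called 129 higher and 84 lower for the regional difference.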

How the data were processed

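Polysomal RNA (IP) and tissue RNA (input) were sequenced from the hypothalamus and midbrain of Slc17a6-TRAP mice, 3 libraries in each of 4 groups. The deposited files hold raw counts of reads per gene, made by the authors with STAR 2.0.0e and HTSeq on mm10, per the submitters' processing notes; the annotation, counting mode and strand setting are not given in the sources used here. The summary lines of HTSeq and a line named unknown were left out, which left 32531 gene rows with totals of 41909019 to 55148109 counts per library. Rn45s, the ribosomal RNA precursor, took 5.21% to 12.5% of the counts in the IPs and 2.57% to 3.97% in the inputs.

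The members, stems, lists and tests were chosen with earlier results of these data known. Members that passed the filter were named, except 1 that is not reported here, values in every library were given for at most 20 members with a highest group mean of at least 1 CPM and for those called between regions, and other values were added after they were seen. Genes passing filterByExpr were fitted with edgeR 4.0.16 (quasi-likelihood, robust, TMM scaling, 4 group means, R 4.3.3), with Benjamini-Hochberg adjustment over 18128 genes. Log2 ratios of member to stem, with 0.5 added to each, were tested with limma 3.58.1 over 5056 opposite-strand pairs lying at most 10 kb apart. DESeq2 1.42.0 was an alternative. The models were also run on simulated data with the same spread for all genes, no replicate effect and changes only in genes above 1 CPM. Those runs do not bear on calls of members with few counts, and their outcome is not given here. A group at 0 was set to 3 counts per library for a bound on its fold, and ratios from 1 to 3 counts carry an exact 95% counting interval. That interval pools the libraries of a group and leaves out the spread between them.

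Positions came from GENCODE mouse release 21, which held 129 of the 137 symbols, and biotypes and promoter windows from RefSeq (GRCm38.p6), which matched all 137. Same-numbered libraries deviated together (every correlation over 0.1) for IP and input in the hypothalamus, with r of 0.324, 0.159 and 0.155, between the IPs, with 0.301, 0.113 and 0.219, and between the inputs, with 0.379, 0.141 and 0.167, so a fit with the replicate number as a block is given beside results it changes there.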

Additional observations from a re-analysis of the deposited data

Results flagged for a closer look

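Emx2os and its stem Emx2, which patterns the forebrain, had opposite orders of IP and input in the 2 regions. Every hypothalamus IP library was above every hypothalamus input library, and every midbrain IP library was below every midbrain input library. The members tested and their stems were searched for this order, so the order itself is no support for a difference. How many of all genes show it was not counted. The regional difference in the log2 change was 4.16 for Emx2os (edgeR adjusted p = 0.158) and 5.06 for Emx2 (adjusted p = 0.0621), so neither passed. In the hypothalamus neither change passed (adjusted p = 0.211 and 0.0502). Under alternatives the regional difference passed for both genes with DESeq2 (adjusted p = 0.000366 and 5.79e-07) and with the replicate block (0.0124 and 0.0166), and for Emx2 without a filter (0.0316). Over all alternatives adjusted p ran from 0.000366 to 0.561 for Emx2os and from 5.79e-07 to 0.178 for Emx2.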

How the results depend on the processing

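The number of members lower in the hypothalamus IP was 20 of 79 in the main fit (all genes: 3547 of 18128). With a minimum count of 30 it was 12 of 55 (all genes: 3158 of 16313). With only the libraries compared it was 13 of 65 (all genes: 2810 of 17042). The filter on the IP libraries gave 1 of 43 (all genes: 2343 of 15495). In the midbrain it was 24 of 79 in the main fit (all genes: 3604 of 18128). There a minimum count of 30 gave 13 of 55 (all genes: 3221 of 16313). The filter on the IP libraries gave 2 of 43 in the midbrain (all genes: 2462 of 15495). In these cases fewer genes or samples were tested. Without any filter, 19 of 124 members were lower in the hypothalamus IP (all genes: 3325 of 23589). In the midbrain IP 25 of 124 were lower without a filter (all genes: 3326 of 23589). The counts higher in the IP were 6 in the hypothalamus and 5 in the midbrain. Leaving out each library in turn gave 3 to 7 higher and 16 to 24 lower in the hypothalamus, and 4 to 6 higher and 16 to 26 lower in the midbrain. Of the calls, 3 of 6 higher and 13 of 20 lower in the hypothalamus, and 4 of 5 higher and 13 of 24 lower in the midbrain, passed in all 12 of those fits. Without replicate 1, 4 of the 6 and 11 of the 20 in the hypothalamus, and 4 of the 5 and 12 of the 24 in the midbrain, still passed. The fits without replicate 1 and with the filter on the IP libraries were chosen after seeing the data.

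For the regional difference, against 0 members, DESeq2 and the replicate block each gave 1 higher (all genes: 129 and 58), and leaving out libraries gave 0 to 1. Between the IPs, where 0 were higher and 1 lower, DESeq2 gave 5 higher and 2 lower (all genes: 848 and 952). The block gave 2 higher (all genes: 800). Limma-voom, only the libraries compared, the filter on the IP libraries and the fit without replicate 1 each gave 0 lower, and leaving out libraries gave 0 to 3 higher and 0 to 2 lower. Between the inputs, against 0, limma-voom and only the libraries compared each gave 1 higher and 1 lower, DESeq2 and the block gave 1 lower, and leaving out libraries gave 0 to 1 lower. Where no value above shows a cause, the cause was not tested.

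For the ratio of member to stem, leaving out libraries gave 4 to 8 higher (against 7) and 14 to 23 lower (against 19) in the hypothalamus. In the midbrain it gave 4 to 7 higher (against 7) and 17 to 22 lower (against 22), with 4 higher without replicate 1. Between the IPs the block gave 2 higher and 2 lower ratios, against 1 and 0; leaving out libraries gave 0 to 1 in each direction, and without replicate 1 there were 0 higher. Between the inputs the block gave 1 higher, against 0.

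In the midbrain IP and input the same-numbered libraries had correlations of 0.189, 0.0754 and 0.157, so the number is not taken to pair them; each still correlated best with its own number. With the replicate number as a block, 6 members were higher in the midbrain, with Cep83os added (adjusted p = 0.031), and among stems Rab10, Ccpg1, Pcsk2 and Sp3 had adjusted p of 0.0318, 0.0392, 0.00156 and 0.0145. The ratios of Cep83os and Rab26os to their stems had limma adjusted p of 0.00568 and 0.0308. The regional difference with the block was 4.29 for Emx2os (adjusted p = 0.0124) and 4.87 for Emx2 (adjusted p = 0.0166). In the other comparisons the block also moved stems between the inputs: Cep83 (-0.54, adjusted p = 0.0113), Six3 (1.16, adjusted p = 0.045) and Srrm4 (0.57, adjusted p = 0.0258).

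Over the members and stems named with values, 6192 values under alternatives were compared; 6007 stayed on their side of the threshold, 91 passed newly, 94 no longer passed and none of the called ones reversed, while 289 values without a call changed sign.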
